A study of Mus musculus with 30 samples.

Results

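The genes described here are 10 genes of vascular smooth muscle: serum response factor (Srf), its coactivator myocardin (Myocd), and 8 genes of the contractile apparatus and its cytoskeleton, namely Acta2, Actg2, Myh11, Mylk, Smtn, Cald1, Lmod1 and Des. They were chosen by name from the 41128 genes listed in each of the deposited count tables, 1 table of aortae and 1 of kidneys. The study deleted the epidermal growth factor receptor (EGFR) in vascular smooth muscle cells (VSMCs) of mice and fed a high-fat diet (HFD) or a standard-fat diet (SFD). KO mice were Egfr flox/flox animals, bred from floxed C57BL/6 mice and Smmhc-Cre mice of the C57BL/6N strain. They carried a tamoxifen-inducible Cre on the Y chromosome under the Smmhc promoter, which is the promoter of Myh11. WT mice had that Cre transgene but no loxP sites, and every mouse received tamoxifen (1 mg per day for 5 days). All mice were male. HFD or SFD was given from 6 weeks of age, 7 days after tamoxifen, for 18 weeks. Surrounding fat and connective tissue were dissected off the aortae before freezing.

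Serum response factor is a transcription factor that binds DNA at CArG boxes. Myocardin, which is made in smooth and cardiac muscle, binds it and switches on contractile genes, whereas myocardin-related transcription factors do so when actin polymerises and frees them to enter the nucleus. The ternary complex factors, which are phosphorylated by growth factor signalling downstream of receptors such as EGFR, compete with myocardin for serum response factor and direct it to immediate early genes. In the aortic media the contractile genes are among the most abundant transcripts, and VSMCs that lose the contractile state lower them.

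The aorta table held 14 libraries, each of 1 mouse: 3 WT-SFD, 4 WT-HFD, 3 KO-SFD and 4 KO-HFD, and any further aortae of the study are not analysed here. The kidney table held 16 libraries, 4 in each of the 4 groups. In all 27 mice were used, and 3 of them gave both an aorta and a kidney. Total counts were 6403699 to 13052870 per aorta (median 8998366) and 16354880 to 28331314 per kidney (median 19544128). The tissues were sequenced at different sites and were normalised and tested separately. Levels are given in FPM (fragments-per-million), scaled by trimmed mean of M values (TMM) factors, in the order of replicates within a group. Differences are log2 fold changes from edgeR's quasi-likelihood test over all groups of a tissue, with p-values adjusted by Benjamini and Hochberg over all genes tested, and calls were made at an adjusted p under 0.05. After the filter on low counts 14796 genes were tested in the aorta, with all 10 smooth muscle genes among them, and 15034 in the kidney, with 8 of the 10 among them. Actg2 and Myocd did not pass the filter in the kidney.

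For the targeted gene, Egfr, the KO and WT aortae of the same diet did not overlap, KO lying lower. It lay at 46.6, 39.4 and 54.2 FPM in WT-SFD, at 64.9, 56.9, 51.1 and 56.9 FPM in WT-HFD, at 26.7, 35.5 and 28.0 FPM in KO-SFD and at 27.5, 40.5, 39.6 and 33.3 FPM in KO-HFD. Across diets, the highest KO-HFD value lay above the lowest WT-SFD value. The log2 difference between KO and WT was -0.64 (SE 0.167, adjusted p = 0.547) after SFD and -0.70 (SE 0.143, adjusted p = 0.129) after HFD. In the kidney, where VSMCs are a small share of cells, Egfr lay between 36.9 and 60.7 FPM in all libraries, with differences between KO and WT of 0.09 after SFD and -0.09 after HFD.

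The labels of the tissues were checked against markers. The 4 smooth muscle markers with counts (Acta2, Myh11, Smtn and Lmod1) summed to 9771 to 17629 FPM in the aortae and to 108 to 159.7 FPM in the kidneys, and 8 markers of kidney tubules summed to 0.732 to 6.82 FPM in the aortae and to 15157 to 18179 FPM in the kidneys. Tagln and Cnn1, which mark smooth muscle as well, are listed at 0 in every library, as are all 1978 genes listed on chromosome 9, so they are not analysed here. All genes listed on chromosomes X (2617), Y (1389) and MT (37) are at 0 too. The aortae were not alike in fat. Markers of adipocytes (20 of 20 with counts, none at 0, the most abundant being Lpl) summed to 6804, 5198 and 266 FPM in WT-SFD, to 266, 271, 453 and 383 FPM in WT-HFD, to 4272, 1429 and 239 FPM in KO-SFD and to 196, 342, 273 and 163 FPM in KO-HFD. Thus 2 of 3 WT-SFD aortae (replicates 1 and 2) and 2 of 3 KO-SFD aortae (replicates 1 and 2) were rich in adipocyte transcripts, and no aorta of a mouse on HFD was. Each comparison of the 10 genes in the aorta is therefore given for all 14 aortae and for the 10 aortae low in adipocyte transcripts, which left 1 WT-SFD and 1 KO-SFD aorta. A lone library is assumed in these fits to vary like the other groups, so that a value between the SFD groups is a difference of 1 library from 1. In those 10 Egfr differed between KO and WT by -0.95 after SFD and by -0.70 (SE 0.124, edgeR adjusted p = 0.037) after HFD, the latter being called.

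The promoter of Srf itself carried the sequence that its protein binds. RefSeq promoters of GRCm38.p6, 250 bases before to 50 after a gene's start, were given for 7 of the 10 genes (8 promoters, since Cald1 had a pair), and were searched for the CArG box, that is CC, 6 bases that are A or T, and GG, which reads alike on both strands. The box was in 535 of 32851 promoters (1.63%), and 6 promoters (0.0183%) held 2 or more. Srf held 2 of them, shown here because Srf is the gene whose product reads this sequence. Both runs are on the minus strand, from chr17:46556225-46556254 and chr17:46556205-46556234 (GRCm38.p6), with the box in capitals, and they overlap in the bases between the boxes. The first base of the boxes lies 82 and 62 bases before the gene's start, outside every transcript of the gene model used.
Srf distal box: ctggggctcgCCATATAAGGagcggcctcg
Srf proximal box: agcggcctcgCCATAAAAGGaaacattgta

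Acta2 held no exact box but 2 CArG-like boxes, in which 1 of the 6 inner bases is C or G. Such boxes were in 2792 promoters (8.50%), and 223 (0.679%) held 2 or more. Acta2 is shown because it was the most abundant of the 10 genes in the aorta. The runs are on the minus strand, from chr19:34255438-34255467 and chr19:34255388-34255417, with the box in capitals, and the first base of the boxes lies 84 and 34 bases before the RefSeq gene start. Both lie in an untranslated exon of a longer transcript of the gene.
Acta2 distal CArG-like box: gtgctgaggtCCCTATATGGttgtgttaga
Acta2 proximal CArG-like box: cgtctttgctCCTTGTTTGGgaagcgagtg
The promoters of Des, Lmod1, Cald1, Smtn and Mylk held neither motif in this window, and those of Myocd, Myh11 and Actg2 were not analysed here. A match is a description of the letters and not of binding.

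In the aorta the genes spanned a wide range of abundance. Per kilobase of merged exons, the mean over 14 aortae was 3160 FPKM (FPM per kilobase) for Acta2, smooth muscle α-actin, and 834 FPKM for Myh11, the smooth muscle myosin heavy chain. It was 230 FPKM for Smtn (smoothelin, an actin-binding protein of contractile cells), 153 FPKM for Lmod1 (leiomodin 1, an actin filament nucleator), 142 FPKM for Cald1 (caldesmon, which restrains myosin on actin) and 121 FPKM for Mylk (myosin light chain kinase, which starts contraction). Actg2, the γ-actin of visceral smooth muscle, lay at 45.0 FPKM. Myocd at 31.0 and Srf at 22.6 FPKM were lower still, and Des (desmin, the intermediate filament of muscle) was lowest at 15.3 FPKM. In WT-SFD the neighbours Smtn, Lmod1, Cald1 and Mylk overlapped in their ranges, as did Actg2, Myocd and Srf, whereas Acta2, Myh11 and Des each stood apart from the next gene. Acta2 and Actg2 encode near-identical proteins, and how any reads matching both genes were counted is not given in the sources used here.

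The kidney held the same genes at other levels and in another order. Smtn (mean over 16 kidneys 19.0 FPKM), Srf (18.7 FPKM), Acta2 (12.0 FPKM) and Mylk (10.0 FPKM) led, followed by Des (4.53 FPKM), Cald1 (3.62 FPKM), Myh11 (2.47 FPKM) and Lmod1 (0.859 FPKM). Set beside each other without a test, the mean level in the aorta was 338 times that in the kidney for Myh11, 264 times for Acta2, 195 times for Actg2, 178 times for Lmod1 and 39.3 times for Cald1. The ratio was 12.1 for both Mylk and Smtn and 3.38 for Des. For Srf it was 1.21, the smallest of the 10. Protein-coding genes took 42.6 to 63.9% of the counts of an aorta and 85.2 to 86.6% of those of a kidney. The ratios were not adjusted for this. Myocd, the partner of Srf, was detected in all aortae with 933 to 3057 counts, and in the kidneys with 0 to 4 counts. The 10 genes together took 1.06 to 2.47% of all counts of an aorta and 0.0269 to 0.0436% of those of a kidney.

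**Figure D1:**
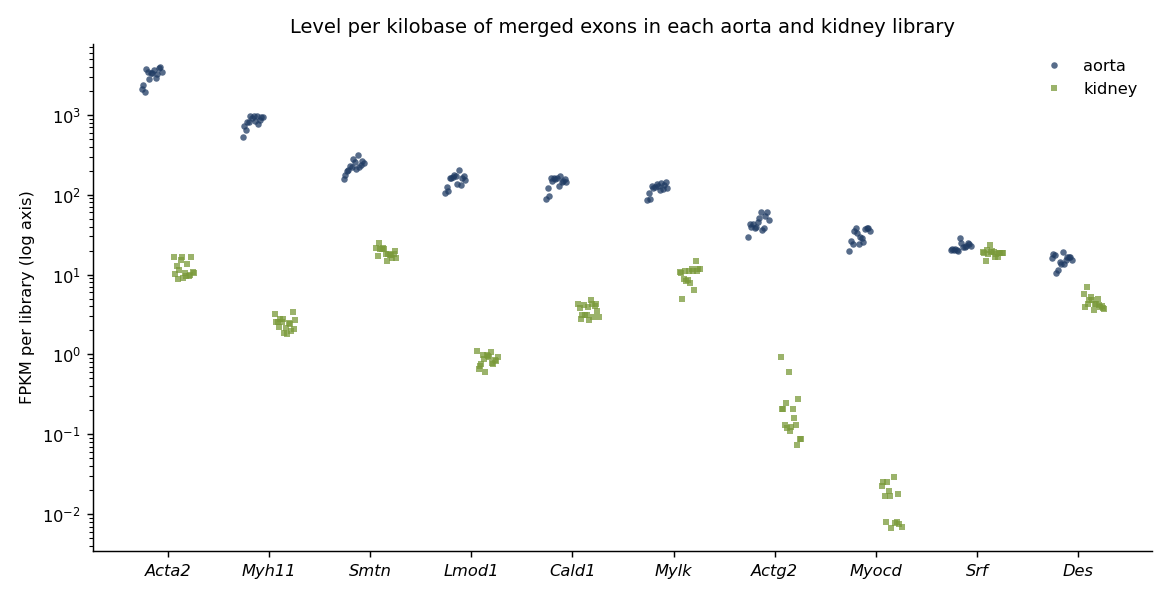
Level of each gene in FPKM (log axis) in each of the 14 aorta (circles) and 16 kidney (squares) libraries, with the 2 kidneys at 0 counts of Myocd not drawn. Acta2 and Myh11 lie highest in the aorta, and the values of Srf lie closest together between the tissues (means of 22.6 and 18.7 FPKM).

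The first comparison asks what HFD did to these genes in WT aortae. Of the 10 genes 9 had a positive difference between WT-HFD and WT-SFD and Des a negative one, with a median over the 10 of 0.27 on the log2 scale. Over all genes tested 48.3% of differences were positive, with a median of -0.01. None of the 10 was called, in a comparison in which 0% of all genes were called by edgeR. DESeq2's Wald test called 635 of all genes and none of the 10 either. At an unadjusted p under 0.05, 2 of the 10 (Acta2 and Smtn) were higher, against 5.55% of all genes higher and 11.1% lower. With library totals in place of TMM factors, which moves the median of all genes by 0.112, 9 of 10 were positive as well. Without replicate 3 of WT-SFD, the aorta of that group low in adipocyte transcripts, 1801 genes were called and the median of the 10 was 0.47, and none of the 10 was among those called (smallest adjusted p = 0.0514, Cald1). Without replicate 1 of WT-SFD the median was 0.15 and no gene was called.

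**Figure D2:**
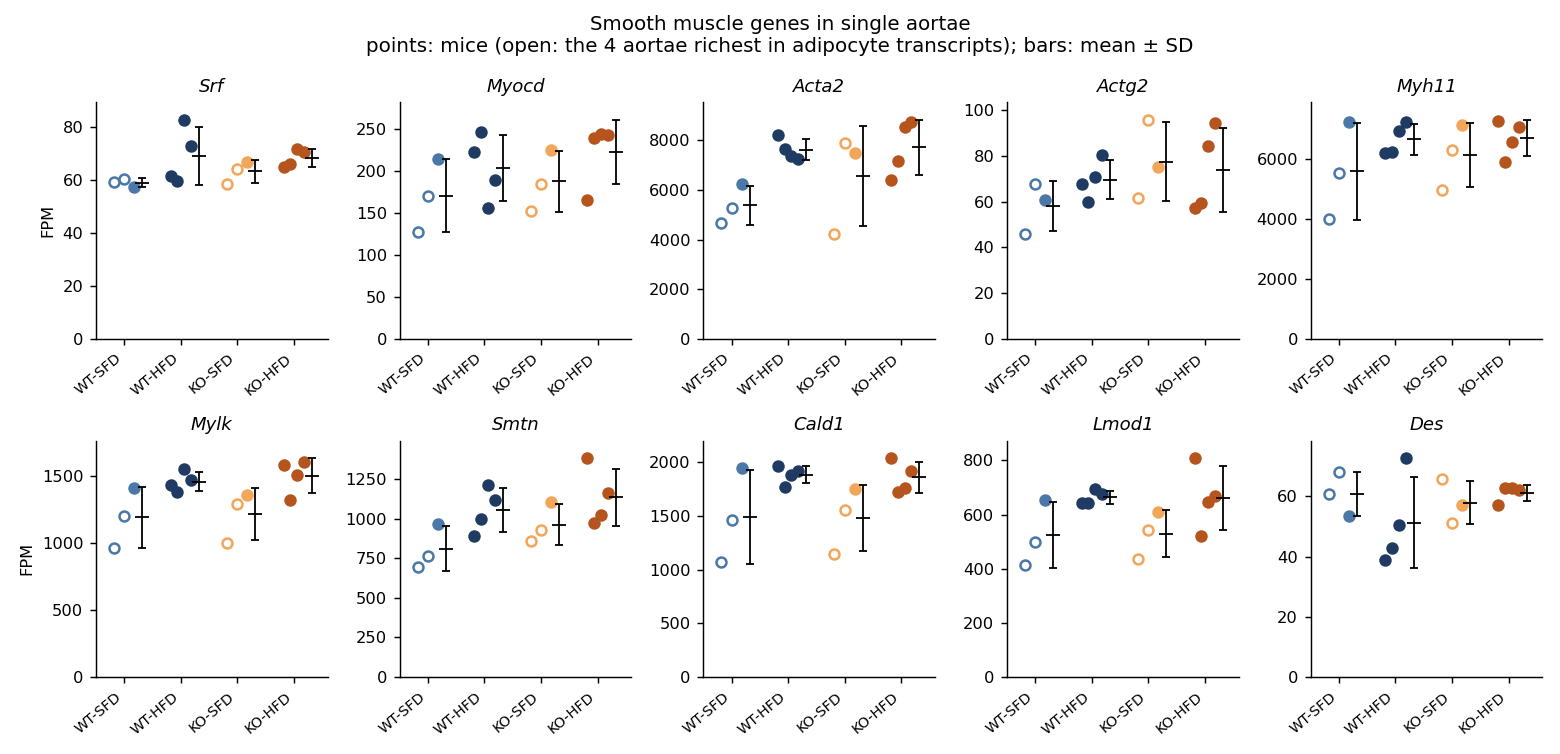
FPM (linear axes from 0) of the 10 genes in each aorta by group, with the group mean ± SD as bars and open circles for the 4 aortae richest in adipocyte transcripts. For Acta2, Actg2, Myocd, Myh11, Mylk, Smtn, Cald1 and Lmod1 the lowest value of both SFD groups is an open circle.

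Srf showed the smallest spread of the 10 genes over the 14 aortae, the highest library being 1.44 times the lowest. In WT, Srf lay at 59.2, 60.3 and 57.2 FPM after SFD and at 61.3, 59.4, 82.6 and 72.7 FPM after HFD. In KO, the values were 58.4, 64.2 and 66.8 FPM after SFD and 64.7, 65.8, 71.7 and 70.6 FPM after HFD. The WT-HFD values overlapped those of WT-SFD in 1 library, the lowest WT-HFD value lying between the WT-SFD values. The group means were 58.9 ± 1.56 (SD, n = 3) FPM in WT-SFD and 69.00 ± 10.8 (SD, n = 4) FPM in WT-HFD, a difference of 0.23 (SE 0.115, 95% interval -0.02 to 0.47, adjusted p = 0.34).

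Myocd, whose product partners serum response factor, varied more. In WT aortae, Myocd lay at 127, 171 and 214 FPM after SFD and at 224, 246, 156 and 189.8 FPM after HFD. KO mice had 153, 185 and 226 FPM after SFD and 166, 239.6, 244 and 243 FPM after HFD. All 4 groups overlapped. The difference in WT was 0.26 (SE 0.203, 95% interval -0.18 to 0.69, adjusted p = 0.57).

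Of the 10 genes Acta2 had the largest difference and was the only 1 of the 10 genes whose WT groups did not overlap, which 4.42% of all genes did with HFD higher. In WT, Acta2 lay at 4656, 5263 and 6231 FPM after SFD and at 8218, 7661, 7367 and 7260.2 FPM after HFD. The KO-SFD values were 4226, 7908 and 7512 FPM and the KO-HFD values 6407, 7171, 8552 and 8727 FPM. Every WT-HFD aorta lay above every WT-SFD aorta, and the KO groups overlapped. The group means were 5383 ± 794 (SD, n = 3) and 7626 ± 429 (SD, n = 4) FPM in WT, a difference of 0.50 (SE 0.220, 95% interval 0.03 to 0.97, adjusted p = 0.265) with an unadjusted p of 0.0375. In the 10 aortae low in adipocyte transcripts, with 1 WT-SFD aorta left, it was 0.29.

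Actg2 was detected in every aorta, with 338 to 1057 counts. In WT aortae, Actg2 lay at 46.04, 67.5 and 60.8 FPM after SFD and at 67.7, 59.8, 70.95 and 80.3 FPM after HFD. Values of 61.6, 95.8 and 75.3 FPM in KO-SFD and of 57.1, 59.3, 84.4 and 94.5 FPM in KO-HFD were measured. The groups overlapped, and the difference in WT was 0.26 (SE 0.199, 95% interval -0.17 to 0.68, adjusted p = 0.559).

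The myosin heavy chain gene Myh11, whose promoter drives Cre in WT and KO alike, ranged widely within WT-SFD. In WT, Myh11 lay at 4007, 5537 and 7256 FPM after SFD and at 6218, 6253, 6942 and 7252 FPM after HFD. It lay at 4980.2, 6311 and 7128 FPM in KO-SFD and at 7268, 5902, 6579.5 and 7074 FPM in KO-HFD. WT-SFD held the lowest value of the 14 aortae (replicate 1) and also a value above all WT-HFD values (replicate 3). The difference in WT was 0.25 (SE 0.205, 95% interval -0.19 to 0.69, adjusted p = 0.585).

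For Mylk, too, replicate 1 lay lowest and replicate 3 highest within WT-SFD. In WT, Mylk lay at 962, 1200.1 and 1413 FPM after SFD and at 1431, 1378, 1548 and 1468 FPM after HFD. In KO, the values were 999, 1292 and 1360.1 FPM after SFD and 1579, 1319.1, 1509 and 1605 FPM after HFD. WT-HFD and WT-SFD overlapped through replicate 3 of WT-SFD. The difference in WT was 0.29 (SE 0.150, 95% interval -0.03 to 0.61, adjusted p = 0.358).

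Smoothelin and caldesmon both sit on actin filaments. In WT aortae, Smtn lay at 695, 764 and 968 FPM after SFD and at 894, 996, 1213 and 1120.03 FPM after HFD. KO mice had 858, 929 and 1103 FPM after SFD and 1382, 975, 1022 and 1159 FPM after HFD. Smtn overlapped between WT-HFD and WT-SFD in 1 library of each, and its difference in WT was 0.38 (SE 0.164, 95% interval 0.03 to 0.73, adjusted p = 0.253) with an unadjusted p of 0.0339. In WT aortae, Cald1 lay at 1076, 1459.8 and 1947 FPM after SFD and at 1962, 1776, 1882 and 1925 FPM after HFD. The KO-SFD values were 1148, 1553 and 1755 FPM and the KO-HFD values 2039, 1728, 1764 and 1918 FPM. For Cald1, replicate 3 of WT-SFD lay within the WT-HFD values and the other WT-SFD aortae below them. The difference in WT was 0.34 (SE 0.186, 95% interval -0.06 to 0.73, adjusted p = 0.39).

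Lmod1 showed the same 2 low WT-SFD aortae. In WT, Lmod1 lay at 414, 500.3 and 655 FPM after SFD and at 643, 642, 692 and 676 FPM after HFD. Values of 436, 544 and 609 FPM in KO-SFD and of 808, 519.97, 647 and 669 FPM in KO-HFD were measured. The WT-HFD values were closely grouped, at 663 ± 25.1 (SD, n = 4) FPM, and replicate 3 of WT-SFD lay among them. The difference in WT was 0.34 (SE 0.172, 95% interval -0.02 to 0.71, adjusted p = 0.338).

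Des alone had a lower mean after HFD in WT. In WT aortae, Des lay at 60.6, 67.95 and 53.5 FPM after SFD and at 38.99, 42.8, 50.5 and 72.6 FPM after HFD. It lay at 65.6, 51.2 and 56.99 FPM in KO-SFD and at 56.98, 62.9, 62.6 and 61.98 FPM in KO-HFD. In WT-HFD 3 of 4 aortae lay below all WT-SFD aortae, and replicate 4 lay above them, so that the groups overlapped. The difference was -0.25 (SE 0.174, 95% interval -0.62 to 0.12, adjusted p = 0.517). Measured against the mean of the other 9 genes in the same aorta on the log2 scale, Des lay at -3.33 ± 0.39 (SD, n = 3) in WT-SFD and at -3.94 ± 0.35 (SD, n = 4) in WT-HFD. Replicates 1 and 2 of WT-SFD, rich in adipocyte transcripts, lay at -3.04 and -3.19. Replicate 3 lay at -3.77, within the WT-HFD values (-4.27 to -3.45). On this scale the means of KO-SFD and KO-HFD were -3.55 and -3.68.

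Single libraries of WT-SFD decided the size of most of these differences. Without replicate 1 of WT-SFD the difference in WT was 0.06 for Myh11, 0.09 for Myocd, 0.12 for Actg2, 0.15 for Cald1, 0.16 for Mylk and 0.20 for Lmod1. Without replicate 3 it was 0.49 for Myh11, 0.46 for Myocd, 0.58 for Cald1 and 0.54 for Lmod1. For Srf the lowest value was 0.13, without replicate 3 of WT-HFD, and Des lay at -0.46 without replicate 4 of WT-HFD. Acta2 ranged from 0.41 to 0.62 when each library was left out in turn.

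The 2 WT-SFD aortae that were low in these genes were those rich in adipocyte transcripts. Among the 14 aortae replicate 1 of WT-SFD held 1 of the 3 lowest values for 9 of the 10 genes, replicate 2 of WT-SFD for 6 and replicate 1 of KO-SFD for 8. The remaining adipocyte-rich aorta, replicate 2 of KO-SFD, held none, and each of the other 10 aortae held 0 to 2. The mean of the 10 genes was 8.66, 8.96 and 9.14 log2 CPM (counts-per-million) in WT-SFD, 9.13, 9.12, 9.22 and 9.29 in WT-HFD, 8.81, 9.13 and 9.22 in KO-SFD and 9.23, 9.12, 9.29 and 9.36 in KO-HFD. The mean of the adipocyte markers in the same order was 7.28, 6.83 and 2.29 in WT-SFD, 2.39, 2.50, 3.41 and 3.26 in WT-HFD, 6.54, 5.06 and 2.12 in KO-SFD and 2.11, 3.07, 2.59 and 1.54 in KO-HFD. The 3 highest adipocyte means were those of the 3 aortae with the lowest smooth muscle means. In a bulk library fewer cells of a type and less RNA per cell cannot be told apart.

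**Figure D3:**
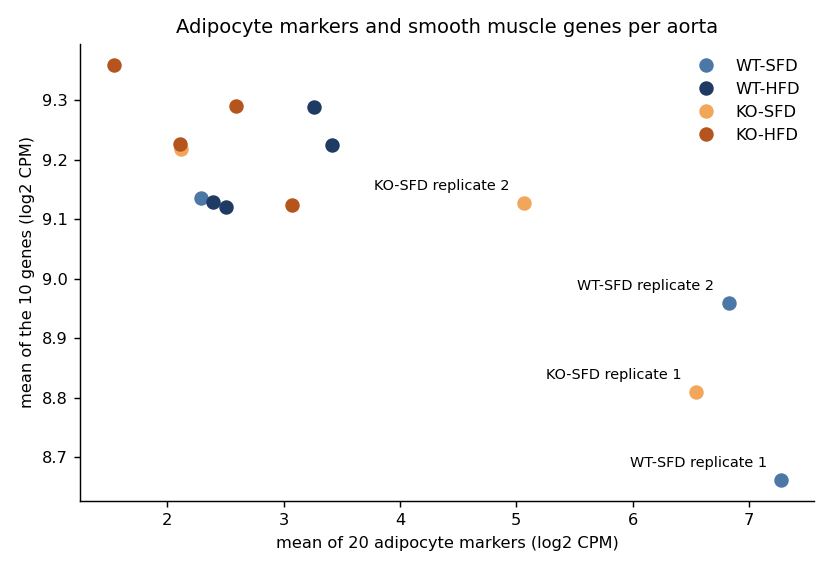
Mean of the 10 genes (log2 CPM) against the mean of the 20 adipocyte markers (log2 CPM), 1 point per aorta, coloured by group, with the 4 adipocyte-rich aortae named. WT-SFD replicates 1 and 2 and KO-SFD replicate 1 lie lowest on the vertical axis, and the 10 aortae at an adipocyte mean of 5 or less lie between 9.12 and 9.36.

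Between WT-HFD and WT-SFD all 20 adipocyte markers had negative differences, 19 at an unadjusted p under 0.05, with a median of -3.67. The 5 cardiac muscle markers tested had negative differences as well, and their sum was 407 FPM in replicate 2 of WT-SFD. Negative too were 4 of 5 Schwann cell markers (median -0.90), all 4 skeletal muscle markers tested (-0.73) and 7 of 10 endothelial markers (-0.13). The part of these cell types was not tested. Positive differences were found for 10 of 10 fibroblast markers (median 0.31), 6 of 8 leucocyte markers (0.30) and 6 of 7 markers of pericytes and mesangium (0.23), none of them called, and their part was not tested. When the 10 aortae low in adipocyte transcripts were tested alone, 16 of 19 adipocyte markers had positive differences in WT, with a median of 0.68. Of the 10 smooth muscle genes 6 had positive differences there, with a median of 0.03. The difference was 0.29 for Acta2, 0.27 for Srf, 0.20 for Actg2, 0.13 for Smtn, 0.05 for Mylk and 0.02 for Lmod1. It was -0.04 for Cald1, -0.06 for Des, -0.07 for Myocd and -0.12 for Myh11, and none of the 10 was called. With the adipocyte mean as a covariate in all 14 aortae 7 of 10 were positive, with a median of 0.09. The part of adipocyte transcripts in the difference was not tested beyond these fits, and the first of them rests on 1 WT-SFD aorta.

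The second comparison asks the same in KO aortae. Again 9 of the 10 genes had positive differences, with a median of 0.24, against 49.7% of all genes and a median of -0.00163. None was called, with 0% of all genes called. No gene of the 10 passed an unadjusted p under 0.05, against 2.62% of all genes higher, and DESeq2 called 8 of all genes and none of the 10. Lmod1 differed by 0.32 (SE 0.171, 95% interval -0.05 to 0.69, adjusted p = 0.69) and Mylk by 0.30 (SE 0.150, 95% interval -0.02 to 0.63, adjusted p = 0.677). Srf differed by 0.11 (SE 0.114, 95% interval -0.13 to 0.35, adjusted p = 0.845), Myocd by 0.25 and Acta2 by 0.24. Actg2, at -0.07, was the 1 gene with a negative difference, and Des lay at 0.08. Without replicate 1 of KO-SFD Acta2 lay at 0.00095, Myh11 at -0.00289 and Cald1 at 0.17, and without replicate 2 Acta2 lay at 0.40. The adipocyte markers had 20 negative differences of 20 here too, with a median of -3.16 and 17 at an unadjusted p under 0.05. In the 10 aortae low in adipocyte transcripts 7 of the 10 smooth muscle genes were positive, with a median of 0.04, and with library totals in place of TMM factors (a shift of -0.105 in the median of all genes) 7 of 10 were.

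The next comparisons set KO against WT on each diet. After SFD 8 of the 10 genes had positive differences (45.9% of all genes) with a median of 0.12, and none was called, against 0.0811% of all genes. Actg2 differed by 0.41 (SE 0.212, 95% interval -0.04 to 0.87, adjusted p = 0.804), Acta2 by 0.28 (SE 0.233, 95% interval -0.21 to 0.78, adjusted p = 0.844) and Smtn by 0.25 (SE 0.174, 95% interval -0.12 to 0.62, adjusted p = 0.828). Srf differed by 0.10 (SE 0.122, 95% interval -0.16 to 0.36, adjusted p = 0.9) and Myh11 by 0.13. In the same comparison 6 of 8 leucocyte markers were higher at an unadjusted p under 0.05, against 434 of all 14796 genes. The leucocyte median was 1.04, and 0.50 in the 10 aortae low in adipocyte transcripts, 1 library against 1. All 20 adipocyte markers (median -1.06) and all 5 cardiac markers (median -1.90) had negative differences. The part of these cell types was not tested. Without replicate 1 of WT-SFD the median of the 10 was -0.05 with 4 of 10 positive, and without replicate 3 it was 0.28 with 9. In the 10 aortae low in adipocyte transcripts, here 1 library against 1, 6 of the 10 were positive with a median of 0.08. Library totals without TMM moved the median of all genes by 0.291, and then all 10 were positive. After HFD, when no aorta was rich in adipocyte transcripts, the groups lay closest. Here 7 of 10 were positive (48.5% of all genes) with a median of 0.03, and none was called, against 0.0811% of all genes. Apart from Des (0.26 (SE 0.161, 95% interval -0.09 to 0.60, adjusted p = 0.999)) and Myocd (0.13 (SE 0.187, 95% interval -0.27 to 0.53, adjusted p = 0.999)) all differences lay between -0.02 and 0.10. For Srf the interval was -0.24 to 0.21 and for Acta2 -0.41 to 0.45. In the 10 aortae low in adipocyte transcripts 7 were positive with a median of 0.03, and with library totals without TMM, a shift of 0.0725, all 10 were. No gene of the 10 passed an unadjusted p under 0.05 in either comparison of genotypes, and DESeq2 called none.

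**Figure D4:**
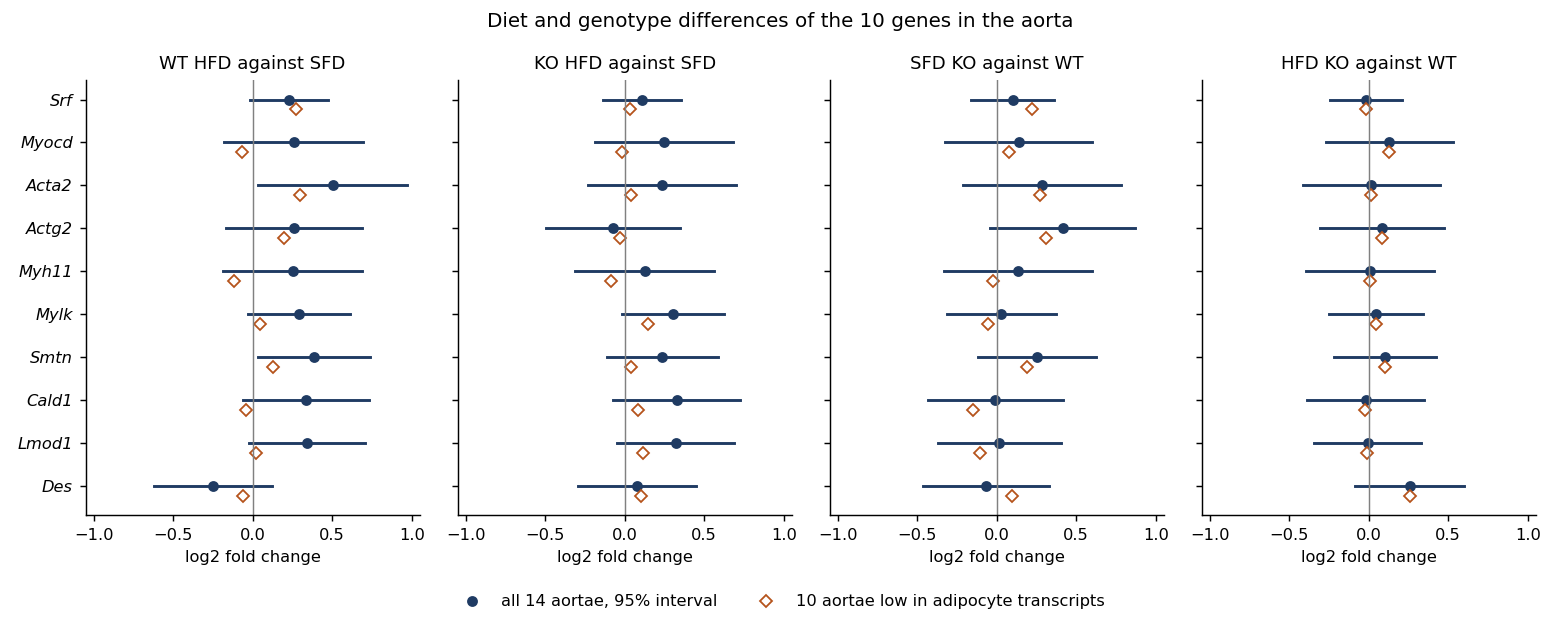
Log2 fold change of each gene in the aorta for the 4 comparisons, as the estimate with its 95% interval over all 14 aortae (filled) and the estimate over the 10 aortae low in adipocyte transcripts (open diamonds). Of the intervals those of Acta2 and Smtn in WT HFD against SFD alone do not reach 0, and most open diamonds of the diet comparisons lie nearer to 0 than the filled points.

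Whether the diet acted differently in WT and KO was tested as the interaction, which is the difference in KO minus that in WT. The 10 values lay between -0.33 (Actg2) and 0.32 (Des), with a median of -0.07, and 2 of 10 were positive. In the 10 aortae low in adipocyte transcripts the median was 0.04 with 6 of 10 positive, and with library totals without TMM, a shift of -0.217, 1 of 10 was positive. For Srf it was -0.12 (SE 0.161, 95% interval -0.46 to 0.23, adjusted p = 1.0) and for Myocd -0.01 (SE 0.286, 95% interval -0.62 to 0.60, adjusted p = 1.0). No gene was called (0% of all genes tested), and no gene of the 10 passed an unadjusted p under 0.05. DESeq2 called no gene in the interaction either. A difference between the genotypes in their response to HFD was thus not detected for any of the 10 genes.

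The other genes of the pathway were taken from lists fixed by name. Of 43 further contractile and cytoskeletal genes tested, 34 had positive differences between WT-HFD and WT-SFD, with a median of 0.25, against 48.3% positive and a median of -0.01 over all genes. At an unadjusted p under 0.05, 15 were higher and 1 lower, against 5.55% and 11.1% of all genes, in the same comparison in which all 20 adipocyte markers had negative differences. Over the 10 aortae low in adipocyte transcripts 28 of 43 were positive, with a median of 0.06, and 3 were higher at an unadjusted p under 0.05. The 2 smallest p over all 14 aortae were those of Hspb6, a small heat shock protein of relaxing muscle (0.45, SE 0.111, adjusted p = 0.078), and Pdlim7, a cytoskeletal scaffold (0.49, SE 0.122, adjusted p = 0.078), and in the 10 aortae they differed by 0.39 and 0.30. The same list in KO gave 37 of 43 positive differences after HFD, with a median of 0.16, and 2 were higher and 1 lower at an unadjusted p under 0.05. Over the 10 aortae 24 of 43 were positive in KO, with a median of 0.03. None of the 43 was called in any of the 5 comparisons of the aorta, over 14 aortae or over 10.

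Partners and upstream genes of serum response factor made up the next lists. Of 16 coactivators and cofactors tested 10 were positive in WT after HFD and 11 in KO, with medians of 0.20 and 0.02. In the 10 aortae low in adipocyte transcripts 8 of 16 were positive in WT and 3 in KO, with medians of 0.01 and -0.07. Gata6, a smooth muscle transcription factor, differed by 0.41 (SE 0.144, adjusted p = 0.155) in WT, and all WT-HFD aortae lay above all WT-SFD aortae, as for 4.42% of all genes. Arid5a, whose product binds serum response factor, differed by 0.73 (SE 0.271, adjusted p = 0.185). These values were 0.25 and 0.24 in the 10 aortae. Mkl1, which encodes a myocardin-related transcription factor, was higher in KO than in WT after SFD in every library, by 0.33 (SE 0.125, adjusted p = 0.776), a pattern that 4.2% of all genes showed, and by 0.45 in the 10 aortae, 1 library against 1. Of 14 genes of RhoA, ROCK and actin dynamics 12 were positive in WT after HFD, led by Arhgef2 (0.36, SE 0.133, adjusted p = 0.185), an activator of RhoA, and Pfn1 (0.32, SE 0.126, adjusted p = 0.209), which binds actin monomers. Of the 14, 9 were positive over the 10 aortae, with Arhgef2 at 0.18 and Pfn1 at 0.09. The KO aortae gave 10 of 14 positive differences with a median of 0.09, and 7 of 14 over the 10 aortae. Of the 5 actins tested Actb (β-actin) differed by 0.57 (SE 0.174, adjusted p = 0.107) and Actc1 (cardiac actin) by -4.37 (SE 1.126, adjusted p = 0.0791), which were 0.32 and -0.25 in the 10 aortae.

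The immediate early genes, which serum response factor drives with ternary complex factors, had the largest median of these lists between WT-HFD and WT-SFD over all 14 aortae. The list holds Srf itself and Vcl, which is among the contractile genes too. In WT 14 of 15 were positive after HFD with a median of 0.55. At an unadjusted p under 0.05, 4 were higher, against 5.55% of all genes. Among them were Mcl1 (0.24, SE 0.101, adjusted p = 0.245), Ier2 (0.68, SE 0.291, adjusted p = 0.251) and Egr1 (0.60, SE 0.259, adjusted p = 0.260). When tested on the 10 aortae low in adipocyte transcripts, 6 of 15 were positive in WT, with a median of -0.04, and Mcl1, Ier2 and Egr1 lay at 0.04, -0.04 and 0.07. In KO 11 of 15 were positive with a median of 0.11, and 7 of 15 with a median of -0.01 in the 10 aortae. Between KO-HFD and WT-HFD 2 of 15 were positive, against 48.5% of all genes, with a median of -0.25. None was higher or lower at an unadjusted p under 0.05 over all 14 aortae, which did not hold in the fit of the 10. Fitted with the 10 aortae, which hold the same HFD libraries, 2 of 15 were positive with a median of -0.25. Junb, Ier2 and Mcl1 differed by -0.58, -0.51 and -0.20 there. In that fit 17 of 19 adipocyte markers and 8 of 10 endothelial markers were negative as well, while 4 of 5 cardiac muscle markers were positive. Their part was not tested. In the interaction 1 of 15 was positive with a median of -0.29, and 6 of 15 with a median of -0.03 in the 10 aortae. None of the 15 was called in the interaction or in any other comparison.

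The genes outside all lists whose level across the 14 aortae was most like the mean of the 10 were Mrvi1 (r = 0.97), whose product relays cyclic GMP signals in smooth muscle, Fam129a (r = 0.96) and Gpc6 (r = 0.96), a glypican. Sec24d, Fblim1, Coro1c and Pbxip1 followed at r = 0.95 each, with Cpe at r = 0.95. These are Pearson correlations of log2 CPM over 14 libraries, given as a description, and all 14 points share the spread in adipocyte transcripts. Over the 10 aortae low in these transcripts r was 0.88 for Mrvi1, 0.92 for Fam129a and 0.79 for Gpc6, and for the other 5 it lay between 0.59 and 0.81.

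The kidney was asked the same questions. No gene of the 8 tested was called in any of the 5 comparisons, and DESeq2 called none. The background was 0.911% of all genes called between WT-HFD and WT-SFD, 2.3% between KO-HFD and KO-SFD, 0.0133% between KO-SFD and WT-SFD, 0.00665% between KO-HFD and WT-HFD and 0% in the interaction. Positive differences numbered 3, 4, 4, 4 and 3 of 8 in that order, with medians of -0.02, -0.09, 0.05, 0.01 and -0.13. At an unadjusted p under 0.05 the count was 0 in WT for HFD against SFD, 1 in KO, 2 for KO against WT after SFD, 0 after HFD and 0 in the interaction.

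Smtn had the smallest p of the 8 in KO kidneys. In WT kidneys, Smtn lay at 75.03, 93.2, 86.2 and 70.5 FPM after SFD and at 79.3, 75.9, 70.3 and 80.3 FPM after HFD. In KO, the values were 94.9, 107, 91.6 and 92.2 FPM after SFD and 91.7, 80.3, 65.5 and 76.9 FPM after HFD. The KO-SFD values lay above those of KO-HFD with 1 exception, replicate 1 of KO-HFD, which lay between the lowest KO-SFD kidneys. The group means were 96.5 ± 7.43 (SD, n = 4) and 78.6 ± 10.8 (SD, n = 4) FPM. The difference between KO-HFD and KO-SFD was -0.30 (SE 0.109, 95% interval -0.53 to -0.07, adjusted p = 0.194) with an unadjusted p of 0.0151, and 7.14% of all genes were lower at an unadjusted p under 0.05. Against WT on SFD, KO was higher by 0.25 (SE 0.109, 95% interval 0.02 to 0.48, adjusted p = 0.577). Both comparisons use the same KO-SFD kidneys.

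Des had the largest difference between KO and WT after SFD. In WT kidneys, Des lay at 14.9, 19.6, 14.2 and 13.9 FPM after SFD and at 15.999, 15.7, 14.8 and 15.4 FPM after HFD. KO mice had 21.4, 26.2, 16.1 and 18.01 FPM after SFD and 17.9, 13.7, 15.9 and 18.6 FPM after HFD. KO-SFD and WT-SFD overlapped through replicate 2 of WT-SFD. The difference was 0.39 (SE 0.149, 95% interval 0.07 to 0.71, adjusted p = 0.543), and with Smtn it was 1 of 2 genes of the 8 that were higher at an unadjusted p under 0.05, against 4.28% of all genes. Between KO-HFD and KO-SFD Des differed by -0.31 (SE 0.149, 95% interval -0.62 to 0.01, adjusted p = 0.334). Without replicate 2 of KO-SFD these values were 0.25 and -0.17.

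Markers of other kidney cells were compared too, since Des is made by glomerular cells as well. Those of podocytes and adipocytes are given, and those of pericytes and mesangium are not reported here. The 5 podocyte markers had negative differences between KO-SFD and WT-SFD, each at an unadjusted p under 0.05 (4.09% of all genes) with a median of -0.49 and none called, and all 5 were positive between KO-HFD and KO-SFD, 4 at an unadjusted p under 0.05. Of 18 adipocyte markers tested 15 were positive between KO-SFD and WT-SFD with a median of 0.69, 2 of them at an unadjusted p under 0.05. Their sums were 1185, 1522, 1438 and 1742 FPM in WT-SFD, 833, 1123, 1115 and 909 FPM in WT-HFD, 1699, 1440.4, 1353 and 2392 FPM in KO-SFD and 1259, 960.2, 1151 and 834 FPM in KO-HFD. Lpl was the most abundant of them in every kidney and none was at 0. Their part in the values of Smtn and Des was not tested.

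Lmod1 was the 1 gene of the 8 whose KO-HFD and WT-HFD kidneys did not overlap, which 0.639% of all genes did with KO higher. In WT kidneys, Lmod1 lay at 2.60, 3.45, 3.29 and 3.63 FPM after SFD and at 3.65, 3.06, 2.95 and 3.39 FPM after HFD. The KO-SFD values were 4.39, 2.85, 3.01 and 2.35 FPM and the KO-HFD values 3.85, 3.85, 3.73 and 4.22 FPM. All KO-HFD kidneys lay above all WT-HFD kidneys, by 0.26 (SE 0.183, 95% interval -0.13 to 0.65, adjusted p = 0.9998). These levels rest on 43 to 96 counts per kidney.

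Srf ranged from 42.9 to 68.8 FPM over the 16 kidneys. In WT kidneys, Srf lay at 53.4, 68.8, 53.2 and 54.2 FPM after SFD and at 48.5, 47.99, 54.5 and 53.8 FPM after HFD. Values of 55.5, 42.9, 59.01 and 55.8 FPM in KO-SFD and of 52.3, 56.5, 55.9 and 52.9 FPM in KO-HFD were measured. All groups overlapped. The difference between WT-HFD and WT-SFD was -0.16 (SE 0.106, 95% interval -0.39 to 0.06, adjusted p = 0.832), which was -0.07 without replicate 2 of WT-SFD, and that between KO-HFD and KO-SFD 0.03 (SE 0.106, 95% interval -0.20 to 0.25, adjusted p = 0.92). The interaction was 0.19 (SE 0.150, 95% interval -0.13 to 0.51, adjusted p = 0.9997).

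The remaining genes overlapped between the groups of every comparison. Acta2 ranged from 19.2 to 36.7 FPM, Myh11 from 13.5 to 26.0 FPM, Cald1 from 32.4 to 58.1 FPM and Mylk from 55.4 to 165 FPM. Mylk differed by -0.35 (SE 0.235, 95% interval -0.85 to 0.15, adjusted p = 0.675) between KO-SFD and WT-SFD and Cald1 by 0.28 (SE 0.171, 95% interval -0.08 to 0.64, adjusted p = 0.812) between WT-HFD and WT-SFD. Acta2 differed by -0.29 (SE 0.217, 95% interval -0.75 to 0.17, adjusted p = 0.544) between KO-HFD and KO-SFD. Single libraries moved these values, to -0.17 for Mylk without replicate 2 of KO-SFD, to 0.17 for Cald1 without replicate 1 of WT-HFD, and to -0.46 and -0.18 for Acta2 without replicates 3 and 4 of KO-SFD.

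**Figure D5:**
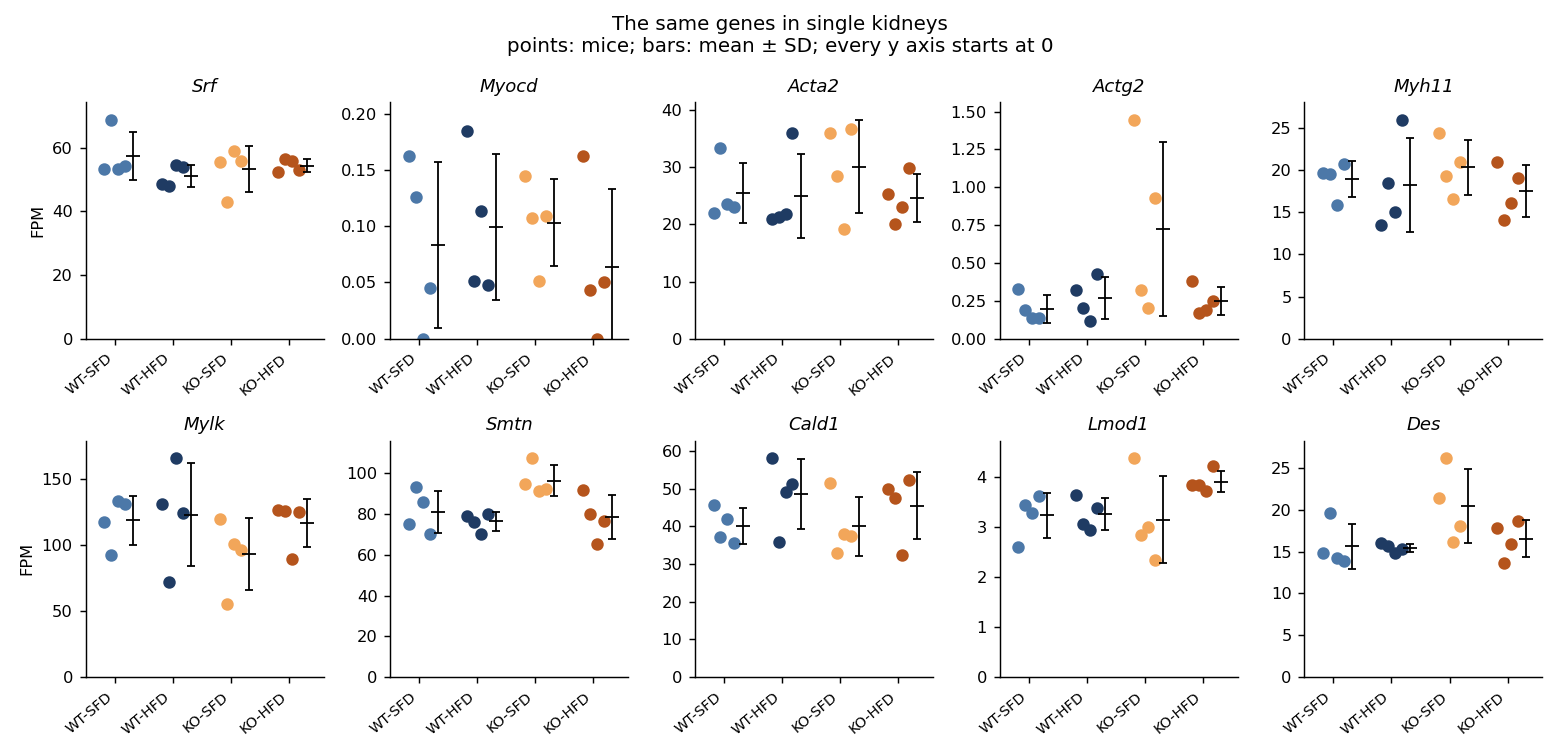
FPM (linear axes from 0) of the 10 genes in each kidney by group, with the group mean ± SD as bars. For Smtn the KO-SFD kidneys (91.6 to 107 FPM) have the highest group mean and overlap with other groups, and Myocd and Actg2 stay under 0.19 and 1.5 FPM.

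Myocd and Actg2 were close to the limit of detection in the kidney. A count of 0 allows up to 3 counts, which corresponds to 0.103 to 0.190 FPM depending on the library and covers counting error only. Myocd had 0 to 4 counts per kidney and 5 to 8 per group of 4, so that no difference between groups could be measured at this depth. Actg2 had 2 to 30 counts. Replicates 1 and 4 of KO-SFD had 30 counts (1.45 FPM) and 17 counts (0.93 FPM), and the other 14 kidneys had 2 to 9. These 2 kidneys also had the highest means of the adipocyte markers (4.83 and 5.41 log2 CPM, the next being 4.49), and the part of adipocyte transcripts was not tested.

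Of 42 further contractile and cytoskeletal genes tested in the kidney, 1 was called in WT after HFD (0.911% of all genes) and 2 in KO (2.3% of all genes). Speg, a kinase of striated and smooth muscle, rose with HFD in WT by 0.69 (SE 0.115, adjusted p = 0.0045) and in KO by 0.83 (SE 0.116, adjusted p = 0.00079). Jph2, which couples the sarcoplasmic reticulum to the plasma membrane, fell by 0.84 on the log2 scale in KO (SE 0.148, adjusted p = 0.0042). In WT it differed by -0.21 (SE 0.147, adjusted p = 0.861), and the interaction was -0.63 (SE 0.208, adjusted p = 0.9997). Of the 42 genes 21 were positive in WT and 19 in KO after HFD. After SFD 26 of 42 were positive in KO against WT with a median of 0.05, and 5 were higher at an unadjusted p under 0.05 (4.28% of all genes), led by Myl9 (0.44, SE 0.155, adjusted p = 0.518), the regulatory light chain of smooth muscle myosin. No gene of the 18 coactivators and cofactors, 14 RhoA and actin dynamics genes, 3 actins or 13 immediate early genes tested was called in any comparison of the kidney. Hopx, whose product restrains serum response factor, differed by -0.60 (SE 0.171, adjusted p = 0.0866) between KO-HFD and KO-SFD.

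Across the 16 kidneys the genes outside all lists most like the mean of the 8 smooth muscle genes tested were Col15a1 (r = 0.85) and Slc24a3 (r = 0.84). Sema4c (r = 0.83), Col18a1 (r = 0.80) and Sparcl1 (r = 0.78) followed. Col15a1 and Col18a1 encode collagens of basement membranes. Myocd and Actg2, which did not pass the filter on low counts, are not part of that mean. Rpl37, Man1c1 and Nek3 completed the 8 nearest, at r = 0.74 to 0.78, and Rpl37 lay at 0.924 FPM on average.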

How the data were processed

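Aortae were sequenced after ribosomal RNA depletion as paired ends of total RNA, and kidneys at another site. Aorta reads were trimmed by the authors (cutadapt) and kidney reads by the sequencing provider; the authors aligned both to mm10 (TopHat) and counted them per gene (featureCounts), and the deposited values are these raw read counts. How strand and multiply mapped reads were handled is not given in the sources used here. The 10 genes, the gene lists and the tests were chosen with earlier results of these data known. Counts of each tissue were fitted in edgeR 4.0.16 (R 4.3.3) with TMM factors, filterByExpr by group and 1 coefficient per group, by the quasi-likelihood test, p-values being adjusted by Benjamini-Hochberg over all genes tested. DESeq2 1.42.0 and the other settings given in the closing section were alternatives. FPKM used merged exon lengths of GENCODE vM21 (GRCm38), and log2 CPM a prior count of 2. Named genes were the 10, Egfr, the 8 genes nearest in pattern per tissue, and genes taken from those of each list with the smallest p (up to 3) or called, not every 1 of which is reported here. On simulated counts for WT HFD against SFD, 200 genes changed among 14796 in the aorta were recovered in 61.6% of cases at a log2 change of 1 and in 77.0% at 2, and of 200 among 15034 in the kidney 73.7% and 93.9%. Smaller changes were not simulated, and the smooth muscle genes tested all differed by less than 1 in this comparison. Replicates were separate mice.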

Additional observations from a re-analysis of the deposited data

Results flagged for a closer look

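Among the 10 genes, 60 sets of 4 libraries of 1 group were searched for a sample that stood apart from the others by Dixon's criterion at 95%, and 6 sets held one, where chance alone gives about 1 in 20. In KO-HFD aortae replicate 1 was lowest for Des (57.0 FPM, the nearest being 62.0 FPM) and for Myocd (166 FPM, the nearest being 240 FPM). In WT-SFD kidneys replicate 2 was highest for Acta2 (33.3 FPM, the nearest being 23.6 FPM) and for Srf (68.8 FPM, the nearest being 54.2 FPM). In WT-HFD kidneys replicate 4 was highest for Acta2 (36.1 FPM, the nearest being 21.8 FPM). In KO-HFD kidneys replicate 3 was lowest for Mylk (89.5 FPM, the nearest being 125 FPM). No group of 3 libraries was searched, so that WT-SFD and KO-SFD aortae are not covered.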

How the results depend on the processing

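None of the 10 genes was called under any alternative, in 1090 values for the aorta and 872 for the kidney; the direction of uncalled values turned in 96 and 40 of them. The smallest adjusted p was 0.0514 in the aorta, for Cald1 between WT-HFD and WT-SFD without replicate 3 of WT-SFD, and 0.0887 in the kidney, for Smtn between KO-HFD and KO-SFD without replicate 1 of KO-HFD. The median of the 10 between WT-HFD and WT-SFD aortae lay between 0.03 and 0.47 over 22 alternatives, that between KO-HFD and KO-SFD between 0.04 and 0.33, and those between KO and WT between -0.05 and 0.42 on SFD and between -0.01 and 0.11 on HFD. The number of all genes called in WT aortae was 0, against 635 by DESeq2, 219 with library totals, 527 with no low count filter and 0 to 1801 leaving out 1 library. It ranged over the alternatives from 0 to 8 in KO aortae, 2 to 28 and 3 to 41 between genotypes on SFD and HFD, 92 to 264 and 196 to 666 for HFD in WT and KO kidneys, and 0 to 27 and 0 to 1 between genotypes in the kidney. The causes of these shifts were not tested. The restriction to aortae low in adipocyte transcripts was chosen after seeing the data. With 3 or 4 mice a group, differences of the size seen for these genes were not called. No paired analysis was possible because the replicate numbers were given in accession order and mice are not matched across groups.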
